A study of Mus musculus with 72 samples.

Results

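The cells described here are the 120 Pet1 neurons of the mouse dorsal raphe with the highest combined level of Nhsl1, Pdyn, Ret, Serpine2, Rprm and Col25a1, set beside the 2230 other cells of the deposited droplet (10X) table. They make up 5.11% of its cells. They were selected on measured values. The UMI counts of each cell were scaled to 10000 and log-transformed, each of the 6 genes was converted to a z score over all cells of the table, and the cells with the highest mean z were taken (the chosen cells). The levels of these 6 genes in the chosen cells are therefore a description, and the results concern other genes. A UMI (unique molecular identifier) counts 1 captured RNA molecule, and CPM stands for the UMIs of a gene summed over the cells of a set and scaled to a total of 1000000 UMIs over all genes.

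Pet1, encoded by Fev, is an ETS transcription factor that drives the genes for serotonin synthesis, reuptake and vesicular packaging, and Pet1 neurons of the dorsal raphe supply serotonin to much of the forebrain. Pdyn encodes prodynorphin, the precursor of dynorphin peptides that act mainly on the kappa opioid receptor. Ret encodes the receptor tyrosine kinase that signals for ligands of the glial cell line-derived neurotrophic factor (GDNF) family together with a GPI-anchored co-receptor such as Gfra1.

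The droplet experiment comprised 2 runs of adult dorsal raphe neurons sorted for a fluorescent label that depends on Pet1-Flpe, a transgene in which Fev sequences drive Flpe recombinase. The first run used Pet1-Flpe; hM3Dq mice with a mean age of postnatal day 65.5, in which Pet1-lineage cells carry EGFP and, without Cre, no hM3Dq receptor. The second run used mice with the alleles En1-cre, Pet1-Flpe and RC-FrePe and a mean age of postnatal day 59, in which only Pet1-lineage cells that have also expressed En1-cre are labelled with EGFP. A further 70 cells were sorted by hand from Pet1-Flpe; RC-FrePe mice that also carried Sert-cre (dorsolateral, dorsomedial, ventromedial and caudal dorsal raphe, with 10, 9, 8 and 6 cells), P2ry1-cre (caudal, 10 cells), Npy2r-cre (caudal, 10 cells, and rostral, 9 cells) or Crh-cre (rostral, 8 cells), aged between postnatal days 62 and 119. Mice were pooled in each run, and the labels name no animal for any cell. The droplet table pools both runs, and the cell barcodes end in 1 or 2, but no label ties an ending to a run, and the pooled cells were therefore analysed as 1 set. The endings differed in sex-linked transcripts. Xist, which is expressed from the inactive X chromosome of females, had UMIs in 866 of the 869 cells with ending 1 and in none of the 1481 with ending 2, and the Y-linked gene Ddx3y had UMIs in none of the former and in 1433 of the latter. A difference between the endings therefore cannot be told apart from one between sexes, nor, if the endings stand for the runs, from one between genotypes, labelling strategies or ages. No test between cells was made. The values are given for the 2 endings separately where they bear on a result, and 95% intervals cover counting error only.

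Of the 120 chosen cells, 50 had barcode ending 1 (of 869 cells) and 70 had ending 2 (of 1481 cells), and no barcode sequence occurred under both endings. The chosen cells had 16131 to 121747 UMIs each (median 66513.5, against 59208.5 in the other 2230 cells), and the median number of genes detected was 7973 against 7713. The median mitochondrial share was 6.66% against 6.39%, and the median share of ribosomal protein UMIs was 10.8% against 9.65%, so the chosen cells were slightly deeper and richer in ribosomal transcripts. With every cell thinned to 20000 UMIs, the 20 leading and 10 lowest genes described below stayed past 2-fold. The part of the ribosomal difference in the results was not tested. None of the 14 cells called as doublets by Scrublet was a chosen cell.

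The mean z of the chosen cells reached 3.13 and had a median of 1.94, against -0.25 in the other cells. The threshold fell within a continuous range. The 119th and 120th cells had scores of 1.600 and 1.597 and the first 2 cells left out had 1.590 and 1.589, and 19 chosen and 19 other cells lay within 0.1 of the last score taken. In the chosen cells Pdyn was at 328 CPM against 32.3 in the other cells, and it ranged from 60.5 to 1224 CPM with a median of 291 per cell. Col25a1, which encodes a transmembrane collagen, was at 577 against 169 CPM. Rprm, which encodes reprimo, a regulator of the cell cycle, was at 305 against 53.6 CPM. Serpine2, which encodes the secreted protease inhibitor protease nexin-1, was at 271 against 74.5 CPM. Ret was at 159.6 against 28.4 CPM and Nhsl1 at 112 against 19.0 CPM. With each gene left out of the score in turn, the 120 cells chosen by the other 5 shared between 102 (without Pdyn) and 112 (without Col25a1) cells with the full choice.

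**Figure D1:**
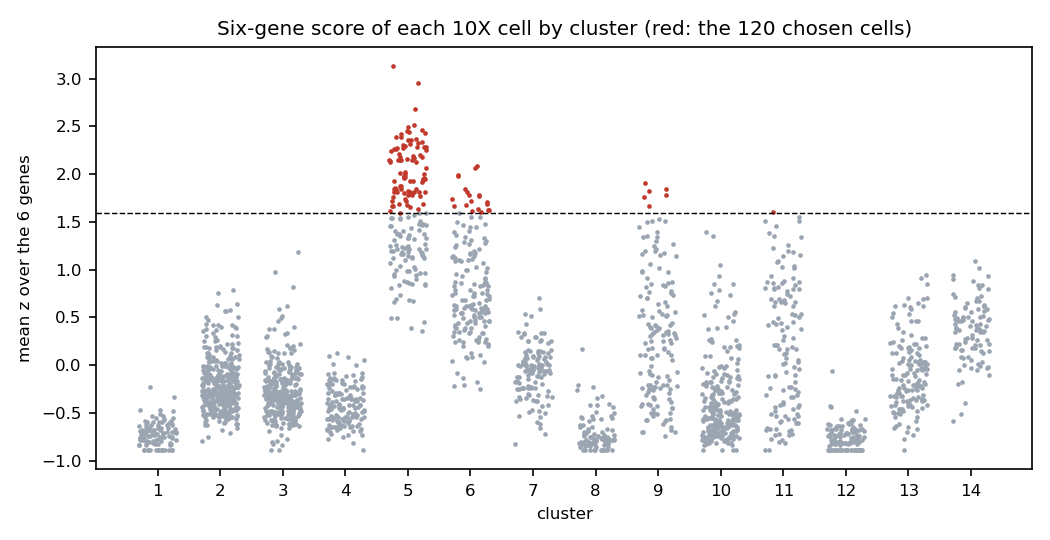
Each point is a droplet cell, placed by cluster (x axis) and by the mean z of the 6 genes (y axis). The dashed line is the lowest score taken, and the red points above it lie in clusters 5 (93 cells), 6 (20 cells), 9 (6 cells) and 11 (1 cell).

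Clustering of all cells in Seurat gave 14 clusters. Cluster 5 held 93 of the chosen cells (77.5%, exact binomial interval 69.0 to 84.6%), cluster 6 held 20 (16.7%), cluster 9 held 6 (5.00%) and cluster 11 held 1. The chosen cells made up 52.0% of the 179 cells of cluster 5, 11.9% of the 168 cells of cluster 6 and 4.05% of the 148 cells of cluster 9. The 6 genes took part in that clustering. With these genes removed from the variable genes, 75.8% of the chosen cells fell in the cluster with the highest score. That cluster was picked by the same 6 genes that chose the cells, so the share is a description and gives no independent support. The choice cuts across cluster 5 and reaches into other clusters. Cluster 5 had a median score of 1.65 and cluster 6 one of 0.72. Cluster 14 followed at 0.38, and its 100 cells contributed no chosen cell. By barcode ending, cluster 5 held 43 of 50 chosen cells in ending 1 and 50 of 70 in ending 2, and all 6 chosen cells of cluster 9 had ending 2. In principal components computed without the 6 genes, 59.2% of the 20 nearest neighbours of a chosen cell were chosen cells on average, where chosen cells made up 5.11% of all cells, and 1.93% of the neighbours of other cells were. Within ending 1 and ending 2 alone the average was 61.3% and 56.2%, and 1 chosen cell had no chosen neighbour in the pooled data.

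The chosen cells carried the serotonergic transcripts that the sort implies. None of the 14 tested genes of serotonin synthesis, transport and breakdown and none of the 7 tested serotonergic transcription factors was 2-fold higher or lower in them. The transcription factor gene En2 lay just under that limit, at 79.0 against 39.6 CPM (log2 ratio 0.997, with 0.97 and 1.01 in endings 1 and 2). Tph2, which encodes the rate-limiting enzyme of serotonin synthesis in neurons, was detected in 100% of the chosen cells and ranged from 942 to 6566 CPM per cell. Its level was 2459.7 CPM in the chosen cells and 2862 CPM in the others, a log2 ratio of -0.22 (interval -0.24 to -0.20) that was -0.38 and -0.13 within endings 1 and 2. Slc6a4, the serotonin transporter, was slightly higher, with a log2 ratio of 0.34 that was 0.30 and 0.37 within the endings. Slc18a2, the vesicular monoamine transporter, was level overall at 2352 CPM in the chosen cells, with log2 ratios of -0.09 and 0.06 in the endings, and Fev had a log2 ratio of 0.07, or -0.06 and 0.14 in the endings. Markers of other cell types were read from lists. Of 9 measured glial markers, 6 had a UMI in the chosen cells, 95 of 120 chosen cells had at least 1 such UMI, mostly of the myelin gene Mbp (25.4 against 21.8 CPM), and their summed level per cell ranged from 0 to 467 CPM (median 27.4) against 0 to 1593 CPM (median 26.2) in the other cells, with Gfap, Pdgfra and Cspg4 at 0. Microglial markers had UMIs for 3 of 7 genes (range 0 to 30.8 CPM against 0 to 3102 CPM, with P2ry12, Csf1r, C1qa and Tmem119 at 0) and vessel and blood markers for 4 of 9 genes (0 to 90.4 CPM against 0 to 2472 CPM, with Kdr, Vtn, Rgs5, Hba-a2 and Alas2 at 0). Ependymal and neighbouring neuron markers had UMIs for 5 of 7 genes, at 0 to 33.8 CPM against 0 to 473 CPM, with Ccdc153 and Slc6a5 at 0. The median of all 3 lists was 0 CPM in both sets of cells. The 11 immediate early genes, which rise with neuronal activity and with dissociation, were all detected, none passed 2-fold, and their summed level was 289 against 274 CPM by the median cell.

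Across the 12468 genes at 1 CPM or more over all cells, the 6 rule genes left out, 236 were at least 2-fold higher in the chosen cells (1.89%) and 558 were at least 2-fold lower (4.48%). The median log2 ratio of all tested genes was -0.06. Of the higher genes 169 also passed 2-fold within each barcode ending, as did 338 of the lower genes. These counts describe this pair of cell sets and carry no p-value, since no label maps the cells of the pooled table to its samples and the rule chose the cells by expression in it. The 20 genes with the highest ratio among those with at least 100 UMIs in the chosen cells and 2-fold in each ending (the leading genes) are described below by what they encode.

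**Figure D2:**
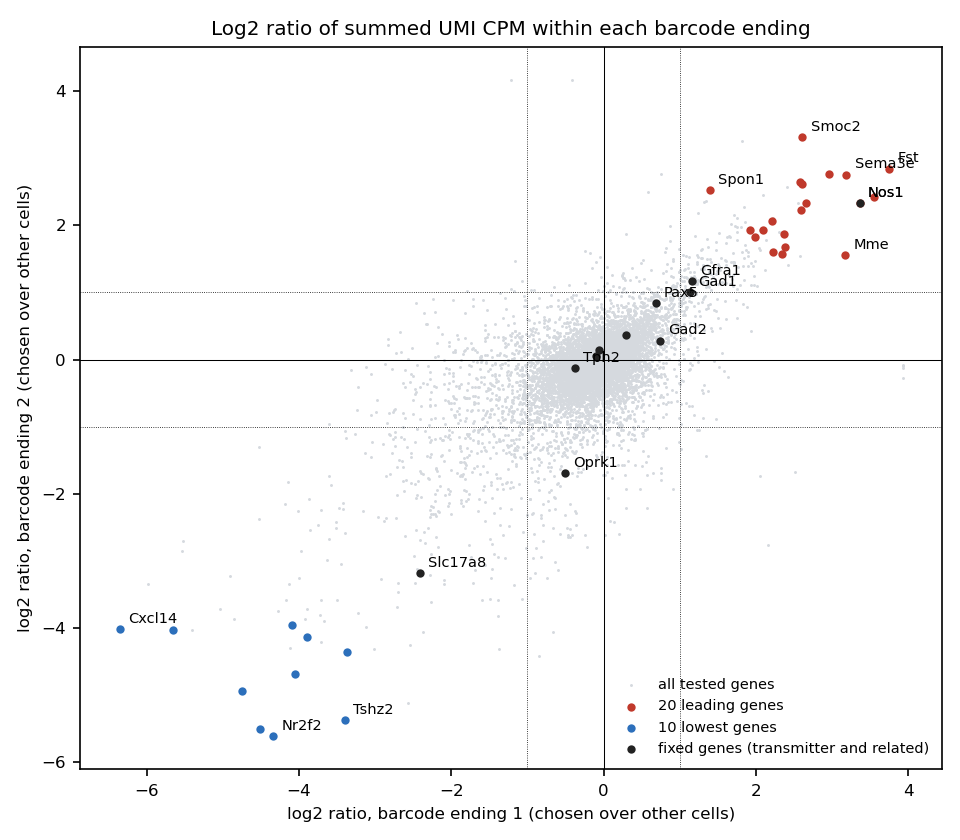
Log2 ratio of summed CPM, chosen over other cells, within barcode ending 1 (x axis) and ending 2 (y axis) for each tested gene (grey), with the 20 leading genes in red, the 10 lowest in blue and fixed transmitter and related genes in black. Dotted lines mark 2-fold. The leading genes lie above 2-fold and the lowest genes below it in both endings, and Tph2 and Gad2 lie within it.

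Among secreted and matrix proteins, Smoc2, which encodes a calcium-binding protein of the SPARC family (chr17:14279506-14404790, plus strand, GRCm38 with GENCODE M21), had the highest ratio of the leading genes. It was at 27.7 against 3.16 CPM, 8.74-fold higher (log2 ratio 3.13, interval 2.88 to 3.37; 2.61 and 3.32 in endings 1 and 2). Per cell it ranged from 0 to 216 CPM with a median of 13.7, and 55.0% of the chosen cells had a UMI, so the chosen cells overlapped the others, of which 7.89% had one. Fst, which encodes the activin-binding protein follistatin, was at 25.0 against 3.45 CPM (7.24-fold) but was found in 49 of 120 chosen cells, and the 10 highest cells held 54.0% of its 189 UMIs. Spon1, encoding the axon-associated matrix protein F-spondin, was at 23.3 against 5.08 CPM, with log2 ratios of 1.40 and 2.52 in the endings, the widest gap in favour of ending 2 among the leading genes. Rspo1, an R-spondin that enhances Wnt signalling, was 4.28-fold higher (28.7 against 6.71 CPM). Emilin2, an elastin-associated glycoprotein, was 4.00-fold higher (46.1 against 11.5 CPM) and was detected in 81.7% against 24.8% of cells. Fgf18, a fibroblast growth factor, was 3.98-fold higher (26.3 against 6.61 CPM).

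Guidance and adhesion were represented by Sema3e and Sdk1. Sema3e, which encodes a secreted semaphorin that binds plexin D1 (chr5:14025276-14256689, plus strand), was at 36.5 against 4.89 CPM, 7.47-fold higher, and ranged from 0 to 224 CPM with a median of 24.5 over the chosen cells. It was detected in 65.0% against 11.3% of cells, or 36.4% against 7.16% once every cell was thinned to 20000 UMIs. Sdk1, an immunoglobulin-family adhesion molecule of synapses, was detected in more chosen cells than any other leading gene, in 88.3% against 20.6% of cells, and was 7.24-fold higher (42.7 against 5.91 CPM).

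Nos1, the neuronal nitric oxide synthase (chr5:117781032-117958840, plus strand), had the most UMIs of the leading genes, 908 in the chosen cells. It was at 120.2 CPM (interval 112 to 128) against 18.0 CPM, a log2 ratio of 2.74 that was 3.37 and 2.33 in endings 1 and 2. Its spread over cells was wide. It ranged from 0 to 968 CPM with a median of 29.1, 79 of 120 cells had a UMI, and the 10 highest cells held 46.3% of its UMIs. The 142 other cells of cluster 9 had Nos1 at a like level, 124 CPM (log2 ratio of all chosen cells over them -0.05, interval -0.18 to 0.08), and 72.5% of them had a UMI, against 65.8% of the chosen cells. Necab1, which encodes a neuronal EF-hand calcium-binding protein (chr4:14952245-15149794, minus strand), was at 56.4 against 9.21 CPM, with log2 ratios of 2.58 and 2.64 in the endings, and was detected in 70 of 120 cells. Pde3a, a cyclic AMP phosphodiesterase that cyclic GMP inhibits, was 5.06-fold higher (30.7 against 6.07 CPM) and detected in 77.5% against 21.1% of cells.

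The remaining leading genes were enzymes, transporters and regulators. Olah, which encodes a thioesterase that releases fatty acids from fatty acid synthase, was at 14.3 against 1.85 CPM (7.72-fold). Hacd4, a dehydratase of very long-chain fatty acid synthesis, was at 40.5 against 6.66 CPM (6.08-fold), with log2 ratios of 2.60 and 2.61 in the endings. Mme, which encodes neprilysin, a membrane peptidase that cleaves enkephalins and other peptides, was 5.11-fold higher, but its log2 ratio was 3.17 in ending 1 and 1.56 in ending 2. Slc14a1, a urea transporter, was 5.36-fold higher, and Slc44a5, of the choline transporter-like family, was 3.87-fold higher. Greb1, named for its regulation by oestrogen, was 4.23-fold higher, and Tiparp, an ADP-ribosyltransferase, was 3.72-fold higher and was found in 82.5% against 37.6% of cells. Tmem232 and Fam163a completed the set at 3.83-fold and 3.79-fold.

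The 10 lowest genes were at or near 0 in most of the chosen cells. Nr2f2, which encodes the orphan nuclear receptor COUP-TFII (chr7:70351944-70366735, minus strand), had 2 UMIs in the chosen cells against a level of 21.1 CPM in the others (log2 ratio -6.31, interval -9.36 to -4.46). Tshz2, a zinc finger transcription factor, and Gpc3, a glypican that carries heparan sulfate, had 4 UMIs each, with log2 ratios of -5.42 and -5.27. Hs3st4, a heparan sulfate sulfotransferase, had the highest level of the 10 in the other cells, at 76.2 CPM. It had 20 UMIs in the chosen cells (2.65 CPM), and 1 cell reached 372 CPM. The ubiquitin ligase gene March1, the chemokine gene Cxcl14, Tpbg, Cmbl, Crct1 and the somatostatin gene Sst had log2 ratios between -4.99 (March1) and -4.00 (Sst). Sst was found in 9.17% against 8.07% of cells, so its lower level came with no lower share of cells with a UMI.

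The gene lists were drawn up for genes that vary among neurons. Over all of them, the serotonergic lists included, 50 of 447 tested genes were at least 2-fold higher (11.2%) and 100 at least 2-fold lower (22.4%), with a median log2 ratio of -0.03, where 1.89% and 4.48% of all tested genes were. Among the transmitter genes, Gad1 was higher in the chosen cells, Slc17a8 was lower and Gad2 stayed under 2-fold. Gad1, which encodes the GABA-synthesizing enzyme GAD67, was at 93.0 against 45.1 CPM (log2 ratio 1.04, interval 0.93 to 1.16; 1.14 and 1.00 in the endings). It was split among the chosen cells, with 55 of 120 having a UMI, a median of 0 and a highest value of 469 CPM. Gad2, which encodes GAD65, was at 148 against 111 CPM, a log2 ratio of 0.41 that was 0.74 and 0.28 in endings 1 and 2 and stayed under 2-fold in both. Slc17a8, which encodes the vesicular glutamate transporter VGLUT3 (chr10:89574020-89621253, minus strand), was at 23.0 against 166 CPM, 7.22-fold lower (log2 ratio -2.85, interval -3.08 to -2.64; -2.41 and -3.19 in the endings). Its 174 UMIs in the chosen cells were uneven, as 10 cells held 59.8% of them and 73 cells had none. The size of this difference moved with the choice of cells. It was -1.47 when Pdyn was left out of the score and -1.70 with 180 cells in place of 120. Slc1a2, a glutamate uptake transporter, was also lower, at 6.22 against 16.0 CPM. Across the list of GABA and glutamate transmitter genes, 1 of 10 tested genes were at least 2-fold higher and 3 at least 2-fold lower, with a median log2 ratio of 0.14, beside -0.06 for all tested genes.

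Counted cell by cell, 63 of the 120 chosen cells had UMIs of Gad2 and none of Slc17a8 (52.5%, exact binomial interval 43.2 to 61.7%), 42 had both (35.0%), 5 had Slc17a8 alone and 10 had neither. The split was alike in the endings, with 34.0% and 35.7% of the chosen cells having both. With each cell thinned to 20000 UMIs, which left out 2 chosen cells, 61.0% had Gad2 alone, 18.6% had both and 16.9% had neither. For comparison, Gad2 UMIs were found in 87.5% of the chosen cells and in 11.6, 26.5 and 17.4% of the cells of clusters 8, 10 and 12, which are rich in Slc17a8 (86, 238 and 109 cells with medians of 65592.5, 70425 and 45568 UMIs). Slc17a8 UMIs were found in 39.2% of the chosen cells and in 20.9 and 30.7% of the cells of clusters 2 and 3, which are low in Slc17a8 (369 and 313 cells with medians of 56611 and 69456 UMIs). After thinning, the Slc17a8 share was 22.0% in the chosen cells (exact binomial interval 14.9 to 30.6%), which included the 17.1% of cluster 3, and it was 12.2% in cluster 2. The share of chosen cells with an Slc17a8 UMI was therefore not told apart from that of cluster 3, and it lay above that of cluster 2. In the other cells of clusters 5 and 6 the thinned share was higher, at 38.8% and 43.1%. Such shares do not measure levels, and 10 cells held 59.8% of the Slc17a8 UMIs of the chosen cells. How much of these Slc17a8 UMIs comes from free RNA was not tested.

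Among the partners of Ret, Gfra1, the preferred co-receptor of GDNF (chr19:58235604-58455909, minus strand), was at 372 against 166 CPM, 2.24-fold higher (log2 ratio 1.16, interval 1.10 to 1.22; 1.17 and 1.17 in the endings). Every chosen cell had Gfra1 UMIs, and it ranged from 137 to 744 CPM with a median of 361 per cell, against a median of 137 CPM in the other cells. The 148 other cells of cluster 6 had Gfra1 at 362 CPM, close to the level of the chosen cells, and the 86 other cells of cluster 5 at 189 CPM. Gfra2, the preferred co-receptor of neurturin, was low in both sets at 3.97 against 1.52 CPM, with log2 ratios of 1.93 and 0.43 in the endings, and its direction reversed after thinning (-0.27). These were the 2 genes past 2-fold among 5 tested on the list of GDNF family ligands and co-receptors, and none was 2-fold lower. On the list of growth factor receptor kinases other than Ret, 1 of 17 tested genes were at least 2-fold higher and 7 at least 2-fold lower (5.88% and 41.2%, beside 11.2% and 22.4% over all neuronal lists), with a median log2 ratio of -0.75. Kit, the receptor of stem cell factor, was the higher one (84.4 against 41.0 CPM, with log2 ratios of 1.45 and 0.74 in the endings). In the other cells of clusters 5 and 6 Kit was at 88.2 and 13.8 CPM. The lower ones included Met, the receptor of hepatocyte growth factor, with 2 UMIs in the chosen cells, Egfr with 1, and the ephrin receptors Epha6 and Epha3 at 0.926 and 0.926 CPM. Met and Egfr were also low in the other cells of cluster 5, at 0.188 and 0 CPM.

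The opioid list held no higher gene beside Pdyn. Of 6 tested genes, 3 were at least 2-fold lower (50.0%, beside 22.4% over all neuronal lists and 4.48% of all tested genes). Penk, the precursor of enkephalins, had 1 UMI in the chosen cells against 5.73 CPM in the others (log2 ratio -5.44, interval -10.74 to -2.95), and Pnoc, the precursor of nociceptin, had 2 UMIs against 1.16 CPM. Oprk1, the kappa opioid receptor on which dynorphin acts, had no UMI in 120 chosen cells, which allows a share of up to 2.5% of cells with a UMI, while 171 of the other 2230 cells had one. Against a floor of 3 counts over the chosen cells it was at least 4.72-fold lower. The other cells of clusters 5 and 6 had no Oprk1 UMI either. Penk was at 0 and 0.236 CPM in those cells and Pnoc at 0.375 and 0.355 CPM. The low levels were therefore not particular to the chosen cells.

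Most other neuropeptide precursors were lower. Of 16 tested, 9 were at least 2-fold lower and 2 were at least 2-fold higher (56.25% and 12.5%). The shares over all neuronal lists were 22.4% and 11.2%. Vip, under the minimum of 1 CPM and looked at after its values were seen, had 104 UMIs in the chosen cells, of which 1 cell held 103. Gal, the galanin precursor, was above 2-fold in both endings (log2 ratios of 1.67 and 2.01), was at 36.1 against 9.85 CPM and was found in 60.0% against 22.3% of cells. Cbln1, a secreted synaptic organizer, was at 24.5 against 11.0 CPM. Adcyap1 (PACAP), Tac1 (substance P) and Nts (neurotensin) had between 1 and 5 UMIs in the chosen cells. Of 17 tested genes of precursor processing and granins 3 passed 2-fold (17.6%), where 6.37% of all tested genes passed in either direction. By direction 5.88% were higher and 11.8% lower, below the 11.2% and 22.4% over all neuronal lists. Chgb, which encodes the granule protein secretogranin-1, was 4.17-fold lower at 308 against 1282 CPM (log2 ratios of -2.60 and -1.80 in the endings), although every chosen cell had it. Vgf, a granule protein and peptide precursor, was at 38.1 against 145 CPM, and Cadps2, which primes dense-core vesicles for release, was higher at 5.16 against 2.09 CPM.

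**Figure D3:**
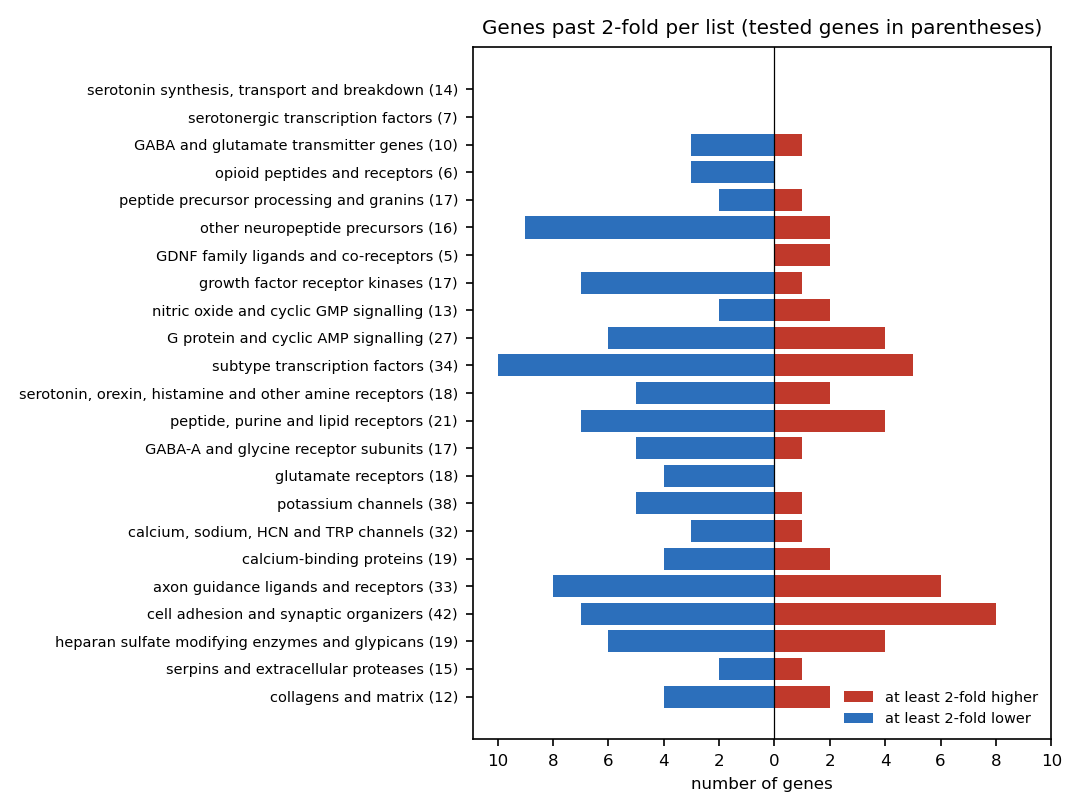
Number of genes at least 2-fold higher (red, to the right) and at least 2-fold lower (blue, to the left) in the chosen cells, for each gene list, with the number of tested genes in parentheses. The 2 serotonergic lists have no bar, and neuropeptide precursors and subtype transcription factors have the longest bars to the left.

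Nitric oxide and cyclic GMP signalling had 2 of 13 tested genes higher and 2 lower (15.4% each). The shares over all neuronal lists were 11.2% higher and 22.4% lower. Besides Nos1, the higher gene was Nos1ap, an adaptor that binds neuronal nitric oxide synthase. It was at 67.1 against 19.9 CPM (log2 ratios of 1.52 and 1.88 in the endings). Nos1ap did not follow Nos1 across clusters. In the other cells of clusters 5 and 6 it was at 62.3 and 53.1 CPM, where Nos1 was at 48.2 and 2.60 CPM. Pde5a, a cyclic GMP phosphodiesterase, had 2 UMIs against 5.05 CPM. In G protein and cyclic AMP signalling, 4 of 27 tested genes were at least 2-fold higher and 6 at least 2-fold lower (14.8% and 22.2%). The median log2 ratio of that list was -0.09. Rgs2 and Rgs10, which speed the turn-off of G proteins, were at 607 against 217 CPM and 319 against 103 CPM, and Adcy2, an adenylyl cyclase, was at 150.5 against 46.0 CPM. Prkcq, the theta isoform of protein kinase C, was lower at 9.13 against 54.1 CPM.

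Among subtype transcription factors, 5 of 34 tested genes were at least 2-fold higher and 10 at least 2-fold lower (14.7% and 29.4%). The shares over all neuronal lists were 11.2% and 22.4%. The median log2 ratio of the transcription factors was -0.45. Zfp536 and Bcl11a, zinc finger proteins, were at 15.2 against 5.16 CPM and 45.8 against 17.5 CPM. The other cells of cluster 6 had them at 21.5 and 91.4 CPM, and those of cluster 5 at 2.44 and 19.1 CPM. Zbtb20, another zinc finger gene, was detected in every chosen cell and was 2.18-fold higher. It was at 1200 CPM in the chosen cells and at 1028 and 1115 CPM in the other cells of clusters 5 and 6. Pax5, a paired-box gene, stayed under 2-fold at 71.1 against 41.4 CPM (log2 ratio 0.78) but was found in 94.2% against 55.9% of cells. The other cells of clusters 5 and 6 had Pax5 at 88.3 and 78.2 CPM, above the chosen cells. Zeb2 had 1 UMI in the chosen cells against 9.58 CPM in the others (interval of the log2 ratio -11.48 to -3.70), and Npas1 had 2 against 3.41 CPM. Zeb2 and Npas1 were also low in the other cells of cluster 5, at 0.375 and 0.188 CPM.

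Over the 4 receptor lists 7 of 74 tested genes were at least 2-fold higher (9.46%) and 21 at least 2-fold lower (28.4%), beside 11.2% and 22.4% over all neuronal lists. In the amine receptor list 2 of 18 tested genes were higher, namely the serotonin receptor Htr5b (29.0 against 12.6 CPM) and the histamine receptor Hrh3 (59.2 against 26.3 CPM), and 5 were lower. The lower ones included both orexin receptors, Hcrtr1 at 12.4 against 70.3 CPM and Hcrtr2 at 7.01 against 26.4 CPM, the muscarinic receptor Chrm2 with 4 UMIs, and Htr2c with 7. Of 21 tested peptide, purine and lipid receptors, 4 were higher and 7 lower. Npy1r, a neuropeptide Y receptor (4.10 against 0.984 CPM), Ramp3, which alters the ligand choice of calcitonin-family receptors (26.2 against 7.66 CPM), the cholecystokinin receptor Cckar (3.57 against 1.05 CPM) and the cannabinoid receptor Cnr1 (20.6 against 10.3 CPM) were higher. Npy2r was lower at 5.82 against 21.0 CPM, and the tachykinin receptors Tacr1 and Tacr3 had 1 UMI each. GABA-A and glycine receptor subunits had 1 of 17 tested genes higher, Gabrg3 (55.4 against 27.2 CPM), and 5 lower, among them Gabrq (4.90 against 21.4 CPM). No glutamate receptor gene was 2-fold higher of 18 tested, and 4 were lower, including Gria1 (14.0 against 37.0 CPM).

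Over both ion channel lists 10 of 70 tested genes passed 2-fold in either direction (14.3%), where 6.37% of all tested genes did. The shares higher and lower were 2.63% and 13.2% on the potassium channel list and 3.1% and 9.4% on the other. These lay below the 11.2% and 22.4% over all neuronal lists. Of 38 tested potassium channel genes 1 was higher, Kcnab1, an auxiliary subunit (102 against 48.9 CPM), and 5 were lower, with the channel-interacting protein Kcnip1 the lowest at 0.397 against 5.73 CPM. Of 32 tested calcium, sodium, HCN and TRP channel genes 1 was higher, the T-type calcium channel gene Cacna1i (33.0 against 11.4 CPM), and 3 were lower. Among calcium-binding proteins Necab2 was higher with Necab1, at 792 against 307 CPM, and Calb2 (calretinin) and S100b were lower at 18.0 against 68.8 CPM and 2.38 against 20.9 CPM.

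Genes of axon guidance and of the cell surface lay past 2-fold in both directions. In the axon guidance list, 6 of 33 tested genes were at least 2-fold higher and 8 at least 2-fold lower (18.2% and 24.2%, beside 11.2% and 22.4% over all neuronal lists), with a median log2 ratio of 0.02. Besides Sema3e, its receptor Plxnd1 was higher (33.7 against 13.6 CPM), as were the semaphorin co-receptor Nrp1 (15.2 against 5.89 CPM) and Wnt5a (124 against 46.1 CPM). Nrp2, the other neuropilin, had no UMI in the chosen cells and was at 11.3 CPM in the others. It was at least 28.4-fold lower against the floor of 3 counts. The netrin receptor Unc5c was at 1.85 against 18.7 CPM. In the other cells of clusters 5 and 6, Nrp2 was also low, at 0.938 and 1.18 CPM, as was Unc5c, at 3.19 and 3.78 CPM. In the adhesion list, 8 of 42 tested genes were at least 2-fold higher and 7 at least 2-fold lower (19.0% and 16.7%). The median log2 ratio of that list was 0.13. The highest were Pcdh11x (91.3 against 30.6 CPM), Amigo2 (259.8 against 87.2 CPM) and Fstl5 (128 against 47.1 CPM). The lowest was Pcdh19 (7.81 against 49.8 CPM). Of the heparan sulfate genes 4 of 19 tested were higher and 6 lower (21.1% and 31.6%). The glypicans split, as Gpc6 and Gpc5 were higher (33.1 against 13.3 CPM and 43.1 against 19.6 CPM) and Gpc3 was lower, and so did the modifying enzymes, with Ndst4 and Sulf1 higher and Hs3st4, Hs3st2 and Hs3st5 lower. Within cluster 5, the other cells were at or above the chosen cells for Gpc6 (31.9 against 31.3 CPM), Gpc5 (69.4 against 45.6 CPM) and Ndst4 (22.1 against 19.8 CPM). Collagens and matrix had Spon1 and Emilin2 higher and 4 of 12 tested genes lower, including Tnr (tenascin-R) at 5.82 against 25.7 CPM. Serpins and extracellular proteases had Mme higher and 2 of 15 tested genes lower.

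The chosen cells were not uniform, and the cluster in which a chosen cell lay went with different levels of several leading genes. These clusters were built from the same expression values, so the contrast is a description. Nos1 was at 146 CPM in the 93 chosen cells of cluster 5 and at 11.3 CPM (interval 5.99 to 19.2) in the 20 of cluster 6. Fst was at 29.8 against 1.73 CPM and Rspo1 at 32.4 against 4.33 CPM. The 6 chosen cells of cluster 9 had these 3 genes at 79.8, 25.9 and 43.1 CPM. Necab1 went the other way, at 34.7 against 156 CPM, as did Gad1 at 80.9 against 182 CPM and Chgb at 189.7 against 705 CPM. For Smoc2, Hacd4, Gad2 and Slc17a8 the counting interval of the log2 ratio between the 2 groups included 0, and for Smoc2 it ran from -0.30 to 0.76. The 6 chosen cells of cluster 9 had the highest Sema3e of the 3 groups, 101 CPM (interval 74.5 to 135), and Slc17a8 at 12.9 CPM, whereas the other 142 cells of that cluster had Slc17a8 at 333 CPM.

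**Figure D4:**
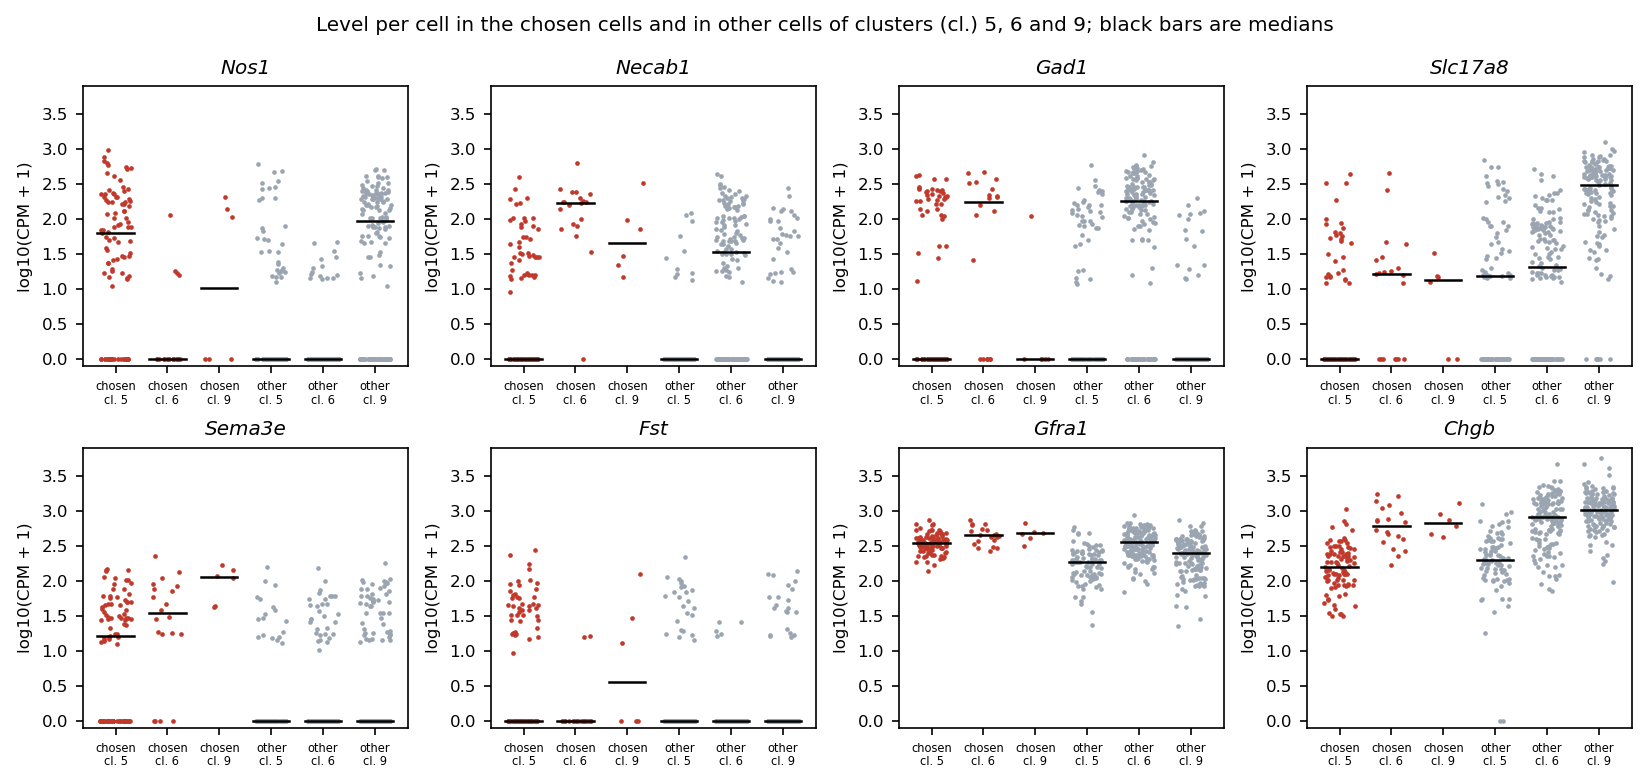
Level per cell, log10(CPM + 1), of 8 genes in the chosen cells (red) and the other cells (grey) of clusters 5, 6 and 9, with medians as black bars. Among chosen cells the median of Nos1 is above 0 in clusters 5 and 9 and that of Gad1 in cluster 6 alone, the median of Nos1 is highest in the other cells of cluster 9, and Gfra1 is detected in every chosen cell.

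Within cluster 5, the 93 chosen cells were set beside the 86 other cells of the same cluster. The leading genes were picked for their level in largely these cells, so the values are a description. Necab1 had the highest log2 ratio of the leading genes, at 34.7 CPM against 6.19 CPM (2.49, interval 1.95 to 3.07), followed by Sema3e at 28.8 against 8.82 CPM (1.71) and Nos1 at 146 against 48.2 CPM (1.60). Smoc2, the first of the leading genes over the whole table, was at 27.8 against 24.9 CPM, with an interval of the log2 ratio (-0.19 to 0.50) that included 0. The 10 lowest genes were also low in the other cells of cluster 5, between 0.188 CPM (Tpbg) and 9.94 CPM (Crct1), and the interval of the log2 ratio lay below 0 for Gpc3, Cmbl and Crct1 alone. Gfra1 was at 351 against 189 CPM, and Slc17a8 was at 22.3 against 78.2 CPM (log2 ratio -1.81, interval -2.10 to -1.52). Within cluster 6, the 20 chosen cells were set beside the 148 other cells. Sema3e was at 46.7 against 7.80 CPM (log2 ratio 2.58, interval 2.04 to 3.12) and Necab1 at 156 against 65.8 CPM (1.24, interval 0.99 to 1.49). Emilin2 was at 84.8 against 81.4 CPM and Gad1 at 182 against 199.9 CPM, and both intervals of the log2 ratio included 0. Gfra1 was at 441 against 362 CPM (0.28).

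Within the chosen cells, Fev was lower where Nos1 was higher. Over 435 pairs of 30 genes, the strongest correlation of log-transformed levels was that of Nos1 with Fev (Pearson r of -0.56 over 120 cells, -0.60 and -0.52 in endings 1 and 2, and -0.50 in cluster 5 alone), given as a description because the cells share libraries. The 79 chosen cells with a Nos1 UMI had Fev at 307 CPM and the 41 without had it at 450.2 CPM, a log2 ratio of -0.55 (counting interval -0.67 to -0.44). After thinning, which leaves 59 cells in each set, the log2 ratio was -0.43. The serotonergic effector genes differed less between these cells, with log2 ratios of -0.07 for Tph2, -0.13 for Slc6a4 and -0.15 for Slc18a2. Chgb, in contrast, was at 222 CPM in the cells with Nos1 and at 505 CPM in the cells without. The correlation of Nos1 with Chgb was -0.38 over all chosen cells and -0.21 within cluster 5, whose chosen cells were lower in Chgb than those of cluster 6. The chosen cells with and without a Nos1 UMI had median depths of 67991 and 61932 UMIs. After thinning to a common depth the log2 ratio of Chgb between cells with and without Nos1 was -1.21. Other pairs were Tph2 with Slc6a4 (r of 0.55), Necab1 with Chgb (0.51 over all chosen cells and 0.18 within cluster 5), and Sema3e with Pax5 (-0.39).

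In the manually sorted cells, read with full-length libraries and between 756872 and 7664103 reads on genes per cell, the same score of 6 genes was computed over the 70 cells. Its median was highest in Npy2r-cre rostral cells (0.73, from -0.75 to 1.63 over 9 cells), followed by Npy2r-cre caudal cells (0.24, from -0.47 to 1.34 over 10) and Sert-cre dorsomedial cells (0.06, from -0.78 to 1.75 over 9). Crh-cre rostral cells had a median of -0.07 and held the highest single cell (1.99). The medians were -0.23, -0.59 and -0.60 in Sert-cre dorsolateral, caudal and ventromedial cells and -0.64 in P2ry1-cre caudal cells. The ranges of neighbouring groups in this order overlapped. The order of the first groups moved when cells with few reads were left out. Among the Npy2r-cre rostral cells, 4 had under 2000000 reads (a limit set after seeing the data) and scores from 0.73 to 1.63. The median of the other 5 was 0.04, below those of the Npy2r-cre caudal and Sert-cre dorsomedial cells. All 4 came from mice of postnatal day 87, and the other 5 from mice of day 77 or 87. Depth therefore cannot be told apart from age here. The 10 P2ry1-cre caudal cells, whose highest score was -0.47, lay below every Npy2r-cre caudal, Crh-cre rostral and Sert-cre dorsolateral cell. A score of 1 or more was reached by 3 of 9 Npy2r-cre rostral, 2 of 8 Crh-cre rostral, 2 of 9 Sert-cre dorsomedial and 1 of 10 Npy2r-cre caudal cells. Pdyn reads were found in 1 of 10 P2ry1-cre caudal cells, where they reached 0.328 CPM, and in 7 of 10 Npy2r-cre caudal cells, where they reached 502 CPM.

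**Figure D5:**
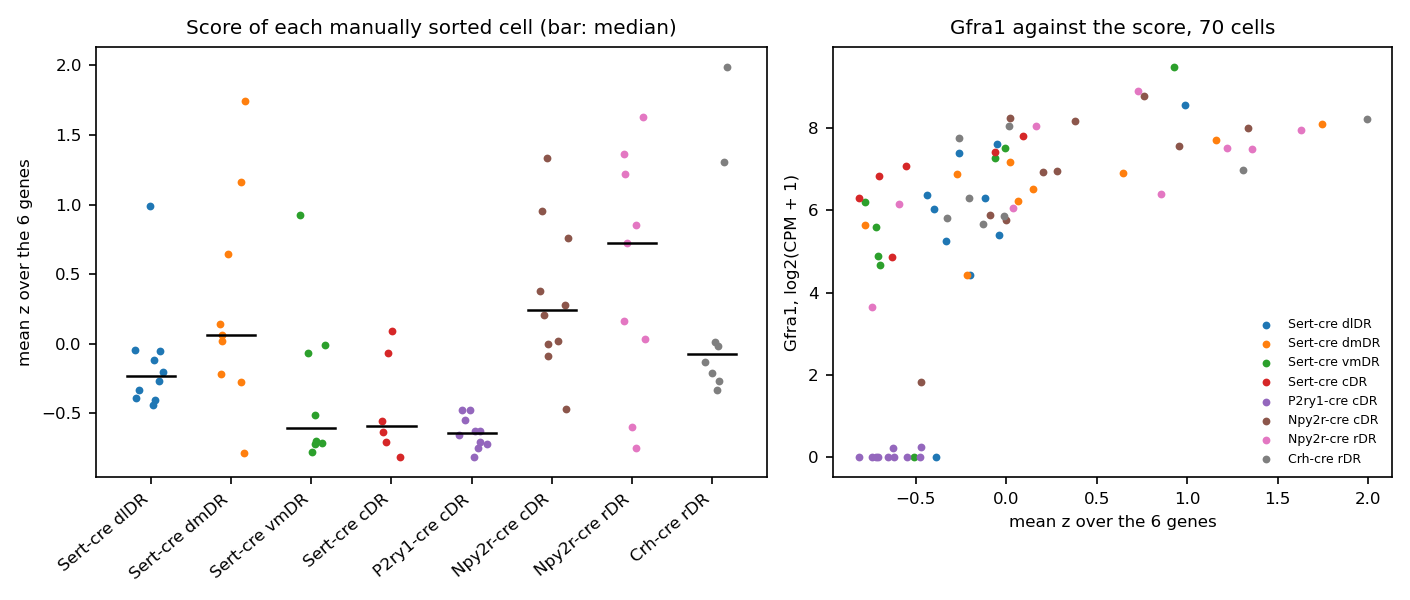
Left, the mean z of the 6 genes (y axis) for each of 70 manually sorted cells by group, with medians as bars. Right, Gfra1 as log2(CPM + 1) against that score, with each point a cell coloured by group. Cells with a score above 0.5 all have Gfra1 reads, and the P2ry1-cre cells sit at the lower left.

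Of the 20 leading genes of the droplet comparison, 19 had a positive rank correlation with the score over the 70 manual cells, with a median Spearman rho of 0.31, where 58.1% of 11429 tested genes with reads in at least 5 cells were positive and their median was 0.03. The cells share groups, and the labels do not say which share an animal, so these values are descriptions. Tiparp (0.56), Necab1 (0.51) and Olah (0.49) had the highest rho, Fst was negative (-0.11), and Nos1 was near 0 (0.08) with reads in 15 of 70 cells. The genes fixed for the comparison included Gfra1, with a rho of 0.76, or 0.71 without the P2ry1-cre cells. Gfra1 had reads in all 9 Npy2r-cre rostral cells (median 179.5 CPM, from 11.6 to 477) and in 2 of 10 P2ry1-cre caudal cells, where it reached 0.189 CPM. Gad1 had a rho of 0.40 and Slc17a8 of -0.26, though the latter was -0.10 without the P2ry1-cre cells. Of the 10 lowest genes, 8 had a negative rho, with a median of -0.22, and the exceptions were Cxcl14 (0.27) and Tpbg (0.20).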

How the data were processed

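Per the labels and the methods of the study, the authors mapped droplet reads to mm10 with Cell Ranger 3.0.2 and deposited, after filtering, a table of UMI counts with 17231 genes. Reads of the manually sorted cells were mapped to mm10 with STAR 2.5.4, and the authors deposited read counts (24256 genes, 70 cells), in which the columns of the Crh-cre cells are named Crf and were matched to the labels by region and number. Neither table was normalized. A further tool in the submitters' processing notes is R 3.5.3.

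From the counts, CPM of summed UMIs, log2 ratios with exact conditional intervals and shares with Clopper-Pearson intervals (95%) were computed in Python 3.11.15 (numpy 2.4.6, scipy 1.17.1, pandas 2.3.3, matplotlib 3.10.9). A sum of 0 was set to 3 counts for a ratio. Clusters were made in Seurat 5.3.0 (R 4.3.3) with 2000 variable genes, components 1 to 50 without 6 and 7, 20 neighbours and a resolution of 0.9, and were numbered by marker genes that for cluster 5 are the 6 rule genes. Doublets were called with Scrublet in scanpy 1.11.5 at an expected rate of 5%. Neighbour shares used 50 components. The ratio was tested on simulated data.

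Named genes were the 20 highest (at least 100 UMIs) and 10 lowest past 2-fold in each ending, 11 fixed genes, and the 4 highest and 4 lowest past 2-fold in each gene list. The chosen cells, lists and rules were set with earlier results of these data known. Sex-linked genes were left out of the naming. Some genes named by these rules are not reported here, and the list counts still hold them. Alternatives varied the ending, depth, number of cells, doublets, averaging, cluster, score genes, expression filter, clustering and neighbour settings, and the measure of correlation.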

Additional observations from a re-analysis of the deposited data

Results flagged for a closer look

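In the groups of manually sorted cells, 1 Sert-cre dorsolateral cell (replicate 10) and 1 Sert-cre ventromedial cell (replicate 6) stood apart from the other cells of their groups in the score of the 6 genes, at 0.99 and 0.93, where the highest of the other cells were at -0.04 and -0.01. The same cells stood apart in Gfra1, at 374 and 721.5 CPM. The gap to the next cell was compared with the range in 16 groups of values, of which chance flags about 1 in 20. Slc18a2 had a log2 ratio of -0.09 in barcode ending 1 and 0.06 in ending 2, each with a counting interval that excluded 0, and the difference between the endings was not tested.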

How the results depend on the processing

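The 20 leading genes stayed at least 2-fold higher and the 10 lowest at least 2-fold lower under the 15 alternatives run for gene ratios, within each ending by the rule itself. The counts of 236 higher and 558 lower genes became 80 and 133 at a minimum of 10 CPM and 930 and 933 with no minimum, and stayed within 1.5 times otherwise, including with only the chosen cells of clusters 5 and 6 (233 and 566), an alternative added after seeing the data. The log2 ratio of Gad2 was 0.74 and 0.28 within endings 1 and 2. That of Slc17a8 was -2.41 and -3.19 within the endings, -2.18 with the rule applied to thinned cells, -2.54 and -1.70 with 60 and 180 cells, -2.59 as a mean over cells, and -1.47, -2.38 and -2.56 with Pdyn, Ret or Rprm left out of the score. That of Tph2 was -0.38 and -0.13 within the endings, -0.12 in thinned cells, -0.14 with the rule applied to thinned cells, -0.25 and -0.13 with 60 and 180 cells, -0.11 as a mean over cells, -0.30 for chosen cells in cluster 5, and -0.15, -0.30 and -0.19 with Pdyn, Ret or Serpine2 left out. The share of chosen cells in cluster 5 was 93.3% for 60 cells and 67.8% for 180, and 96.7% lay in 1 cluster at a resolution of 0.7. In thinned cells the ratios of Gfra2 (-0.27) and Slc5a7 (0.12) reversed. The causes were not tested. Of 2025 values for 135 other named genes, 1736 stayed within the counting interval. The positive correlations in manual cells numbered 18 or 19 of 20 in all alternatives, including with the cells of at least 2000000 reads alone, added after seeing the data. Genes with few UMIs limit the precision of the lowest ratios. No paired analysis was possible because no result comes from a test and the cells carry no animal.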
